A study of Mus musculus with 12 samples.

Results

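The genes of insulin-like growth factor (IGF) signalling in mouse embryonic fibroblasts are described here: the ligand gene Igf1, the receptor gene Igf1r, and the binding protein genes Igfbp2, Igfbp3, Igfbp4, Igfbp5, Igfbp6 and Igfbp7. They were taken by name, without regard to their values, and 8 of 8 were found among the 12591 genes of the deposited table. The fibroblasts came from heterozygous PER2::LUC knock-in mice on a C57 background, which carry luciferase joined to the clock protein PER2, and the study describes them as immortalized. Confluent dishes received new medium with 10 µM Deazaneplanocin A (DZ, an inhibitor of the enzyme AHCY), 1 mM adenine, or 1 mM S-adenosylmethionine (SAM, the methyl donor of the cell) for 24 h, and control dishes (CTL) received the vehicle. All 4 groups, CTL included, contained 3.3 mM HCl and serum. Each group had 3 replicate dishes of the same cells, so that p-values measure the spread between dishes and not between animals or separately derived lines.

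IGF-1 is a secreted hormone that binds the IGF-1 receptor, a tyrosine kinase which signals through IRS adaptor proteins to the PI3K-AKT-mTOR and MAPK cascades and promotes growth and survival. In tissues and in medium most IGF is held by IGF binding proteins (IGFBPs), which can block its access to the receptor or store and deliver it, and which are cut by proteases such as PAPP-A, whose best known substrate is IGFBP4. Fibroblasts secrete several of these proteins and respond to IGF-1 as a growth factor.

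Expression is given as the deposited log2 CPM, CPM being the counts of a gene scaled to library sizes that the authors normalized. The reads on the listed genes, recovered from these values, ranged from 45649534 to 56789090 per library (median 49943100), and the 8 genes had between 182 and 14515 reads per library. SAM replicate 3 stood apart from the other SAM dishes, its reads giving chi-square values per degree of freedom of 15.7 and 19.1 against them, compared with 4.76 to 7.07 for all other pairs of dishes of the same group. Scaling by plain read totals moved the median change over all genes under SAM from -0.015 to 0.11 log2 units, and raised the share of called genes that were higher from 48.5% to 61.2% under SAM and from 48.6% to 63.2% for SAM minus adenine. Of 16 fibroblast markers, 13 were listed, and Dcn, Lum and Fap were not. Their summed level was 25998 to 26558 CPM in CTL, 32963 to 33730 in DZ, 32857 to 35350 in adenine, and 23374 to 24902 in SAM. Ptprc, the defining leukocyte marker, was not listed, nor was any of 8 endothelial and 9 epithelial markers. Only Cd68 and Cd74 of 11 leukocyte markers were listed, at a summed 106 to 111 CPM in CTL, 86.7 to 96.3 in DZ, 136 to 153 in adenine and 182 to 199.87 in SAM. Of 7 smooth muscle markers, 5 were listed, with a summed level of 3786 to 3895 CPM in CTL, 2901 to 2980 in DZ, 3413 to 3511 in adenine and 2613 to 2798 in SAM. The part of these shifts in the results below was not tested. In bulk RNA, fewer cells of a kind and less RNA per cell cannot be told apart.

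The genes lie on 6 chromosomes of GRCm39. Igfbp2 (ENSMUSG00000039323.19, chromosome 1, 72863606 to 72891634, forward strand) and Igfbp5 (ENSMUSG00000026185.9, chromosome 1, 72897091 to 72914043, reverse strand) are neighbours placed tail to tail, with 5456 bases between their ends. Igfbp3 (ENSMUSG00000020427.12, 7156086 to 7164179, reverse strand) and Igfbp4 (ENSMUSG00000017493.13, 98932064 to 98945218, forward strand) are far apart on chromosome 11. Igf1 (ENSMUSG00000020053.19) spans 87693642 to 87772904 on the forward strand of chromosome 10, and Igf1r (ENSMUSG00000005533.11) spans 67601518 to 67883416 on the forward strand of chromosome 7. Igfbp6 (ENSMUSG00000023046.7) spans 102052697 to 102057953 on the forward strand of chromosome 15. Igfbp7 (ENSMUSG00000036256.14) spans 77493130 to 77555931 on the reverse strand of chromosome 5 and overlaps Polr2b on the other strand. The library kit keeps strand, but the strand setting of the counting was not given in the sources used here, so reads of Igfbp7 and Polr2b may not have been told apart.

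The bases before the start of the canonical transcript are shown for 3 genes on which the results turn, Igfbp2, Igfbp5 and Igfbp4. The neighbours Igfbp2 and Igfbp5 were higher under every treatment. Igfbp4 was lower under adenine and SAM and, by a small amount, under DZ. The bases are 5′ to 3′ on the strand of the gene, from chr1:72863399-72863605 (forward), chr1:72914044-72914293 (reverse) and chr11:98931814-98932063 (forward) of GRCm39. Capitals mark matches on either strand to any of 6 motifs: the E-box CACGTG, bound by CLOCK-BMAL1 and MYC, the FOXO site TGTTTAC, the ATF4 site TGATGCAAT, the TATA box TATAAA, the GC box GGGCGG and the CCAAT box CCAAT.
Igfbp2: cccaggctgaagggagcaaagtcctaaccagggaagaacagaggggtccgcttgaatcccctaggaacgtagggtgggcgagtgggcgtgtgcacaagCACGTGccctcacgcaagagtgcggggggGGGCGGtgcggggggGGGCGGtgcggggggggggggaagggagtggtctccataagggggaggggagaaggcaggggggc
Igfbp5: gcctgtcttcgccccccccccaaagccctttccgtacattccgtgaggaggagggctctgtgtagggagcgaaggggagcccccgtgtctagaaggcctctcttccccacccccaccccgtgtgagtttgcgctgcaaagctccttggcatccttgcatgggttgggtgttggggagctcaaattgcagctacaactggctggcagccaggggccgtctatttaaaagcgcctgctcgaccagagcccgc
Igfbp4: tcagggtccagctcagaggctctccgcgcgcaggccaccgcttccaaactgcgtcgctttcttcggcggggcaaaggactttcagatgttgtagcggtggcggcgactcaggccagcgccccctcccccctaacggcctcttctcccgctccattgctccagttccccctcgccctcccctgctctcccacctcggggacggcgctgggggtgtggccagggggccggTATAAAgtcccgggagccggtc
The Igfbp2 stretch stops 43 bases before that start, where another transcript begins. It held an E-box 152 bases before the start, found in 8.07% of 10948 promoters of listed genes over 250 bases, and GC boxes, found in 51.6%. The 250 bases before Igfbp5 held none of the 6 motifs. The Igfbp4 sequence held a TATA box 22 bases before the start, a motif present anywhere in the window in 6.86% of promoters. None of the 8 genes had the FOXO site (2.21% of promoters) or the ATF4 site (0.0822%) in the 250 bases before its start, which says nothing of the factors themselves. For Igf1 all 250 bases, and for Igfbp7 17 of them, lie within the span of another transcript of the gene. These matches are a description of letters and not of binding.

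Igf1 RNA was higher under adenine and SAM, and in both groups by nearly the same amount. Its log2 CPM was 2.65, 2.55 and 2.08 in the CTL dishes, 2.55, 2.62 and 2.65 in DZ, 4.52, 4.47 and 4.17 in adenine, and 4.47, 4.45 and 4.37 in SAM. All adenine and SAM dishes lay above all CTL and DZ dishes, whereas CTL and DZ dishes overlapped, as did adenine and SAM dishes. In the limma model of all 4 groups, Igf1 rose by 1.96 log2 units under adenine (SE 0.124, 3.88-fold, adjusted p = 1.12e-09) and by 2.00 under SAM (SE 0.124, 4.004-fold, adjusted p = 6.02e-10). Under DZ the difference from CTL was 0.18 (95% CI -0.09 to 0.44, adjusted p = 0.231), and it ranged from 0.003 to 0.29 when single dishes were left out. Igf1 had only 191 to 302 reads per library in CTL and DZ, against 890 to 1320 in adenine and SAM.

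Igf1r, the receptor that carries the IGF-1 signal, differed much less. Its log2 CPM was 7.70, 7.68 and 7.59 in CTL, 7.86, 7.87 and 7.84 in DZ, 7.95, 8.03 and 8.05 in adenine, and 7.76, 7.70 and 7.43 in SAM. The adenine dishes were the highest and the DZ dishes next, without overlap, and the SAM dishes straddled those of CTL with SAM replicate 3 the lowest of all 12 libraries. Igf1r rose by 0.35 under adenine (SE 0.0623, 1.28-fold, adjusted p = 0.000111). The difference under DZ, 0.20 (95% CI 0.07 to 0.33), missed the threshold of 0.01 with an adjusted p of 0.0129. Under SAM it was -0.03 (95% CI -0.16 to 0.11, adjusted p = 0.693), and 0.073 without SAM replicate 3 (adjusted p = 0.0736).

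Igfbp2 and Igfbp5, the neighbours on chromosome 1, were among the genes with the largest changes under DZ, and they rose under all 3 treatments. Both encode secreted proteins that bind IGFs with high affinity, IGFBP5 also binding to the extracellular matrix. Igfbp2 was 2.62, 2.61 and 2.58 log2 CPM in CTL, 3.87, 4.11 and 4.11 in DZ, 4.40, 4.44 and 4.16 in adenine, and 4.30, 4.38 and 4.37 in SAM. Every treated dish was at least 1 log2 unit above every CTL dish, and the DZ dishes were below those of adenine and SAM, which overlapped. The rise was 1.43 under DZ (SE 0.081, 2.70-fold, adjusted p = 1.78e-09), 1.73 under adenine (3.32-fold, adjusted p = 3.08e-11) and 1.75 under SAM (3.36-fold, adjusted p = 1.79e-11). Igfbp5 was 3.37, 3.10 and 3.12 log2 CPM in CTL, 4.90, 5.01 and 4.97 in DZ, 5.70, 5.73 and 5.53 in adenine, and 4.04, 4.12 and 4.04 in SAM. The order from CTL through SAM and DZ to adenine held without any overlap of dishes. Igfbp5 rose by 1.77 under DZ (SE 0.0724, 3.40-fold, adjusted p = 5.87e-11), by 2.46 under adenine (5.51-fold, adjusted p = 2.42e-13) and by 0.87 under SAM (1.83-fold, adjusted p = 2.11e-08). Of all genes, 99.7% had a smaller absolute change than Igfbp5 under DZ and under adenine, and 82.9% under SAM, while 99.3%, 97.9% and 96.4% had a smaller change than Igfbp2 under DZ, adenine and SAM, respectively.

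Igfbp3 was the gene that moved in opposite directions. IGFBP3 is the main carrier of IGFs in blood. Its log2 CPM was 2.86, 2.67 and 2.79 in CTL, 1.90, 2.34 and 2.27 in DZ, 4.13, 4.20 and 3.94 in adenine, and 3.53, 3.56 and 3.61 in SAM. The groups ran from DZ through CTL and SAM to adenine with no overlap between neighbours. Igfbp3 fell by 0.60 under DZ (SE 0.107, 1.52-fold lower, adjusted p = 0.000202), and rose by 1.32 under adenine (2.49-fold, adjusted p = 2.15e-08) and by 0.79 under SAM (1.73-fold, adjusted p = 5.49e-06). It had 182 to 248 reads per library in DZ.

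Igfbp4, which encodes a binding protein known chiefly as an inhibitor of IGF action, was lower under SAM and adenine. Its log2 CPM was 7.77, 7.70 and 7.72 in CTL, 7.62, 7.57 and 7.62 in DZ, 6.94, 6.99 and 7.05 in adenine, and 6.01, 5.996 and 6.08 in SAM. The order from CTL down to SAM held in every dish, and the SD within each group was under 0.1 log2 unit (0.0265 to 0.0575, n = 3). Igfbp4 fell by 1.70 under SAM (SE 0.0354, 3.25-fold lower, adjusted p = 2.39e-15) and by 0.73 under adenine (1.66-fold lower, adjusted p = 4.38e-11). Under DZ it was lower by a small amount (log2 fold change -0.12, SE 0.0354, adjusted p = 0.00734), a call lost with plain read totals (adjusted p = 0.0302), with quantile normalization (adjusted p = 0.0180), without the variance trend (adjusted p = 0.0202) and in 5 of the 6 fits that left out 1 dish (adjusted p of 0.0142 without DZ replicate 1 to 0.0391 without CTL replicate 1, the others being without CTL replicate 3, DZ replicate 2 and DZ replicate 3).

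Igfbp6, whose protein prefers IGF-2 over IGF-1, rose under all treatments and most under SAM. Its log2 CPM was 4.30, 3.98 and 4.26 in CTL, 4.72, 4.51 and 4.73 in DZ, 4.76, 4.83 and 4.91 in adenine, and 5.35, 5.38 and 5.44 in SAM. All 4 groups were separate, although DZ and adenine lay close together. The rise was 0.47 under DZ (SE 0.0796, 1.39-fold, adjusted p = 0.000129), 0.65 under adenine (1.57-fold, adjusted p = 2.54e-06) and 1.21 under SAM (2.31-fold, adjusted p = 1.34e-09). Igfbp7, a related matrix protein with low affinity for IGFs, passed the test in no comparison. It was 5.14, 4.86 and 5.06 log2 CPM in CTL, 4.66, 5.08 and 5.05 in DZ, 4.80, 4.83 and 4.45 in adenine, and 4.97, 4.94 and 5.13 in SAM. The adenine dishes lay below those of CTL by a mean of 0.33 (95% CI of the log2 fold change -0.57 to -0.08, adjusted p = 0.0185), a difference that passed the threshold with quantile normalization (adjusted p = 0.00589), with median centring (adjusted p = 0.00683), with only both groups in the fit (adjusted p = 0.00773) and without CTL replicate 2 (adjusted p = 0.00951). Its differences from CTL were -0.09 under DZ (95% CI -0.34 to 0.15, adjusted p = 0.512) and -0.01 under SAM (95% CI -0.25 to 0.24, adjusted p = 0.948).

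**Figure D1:**
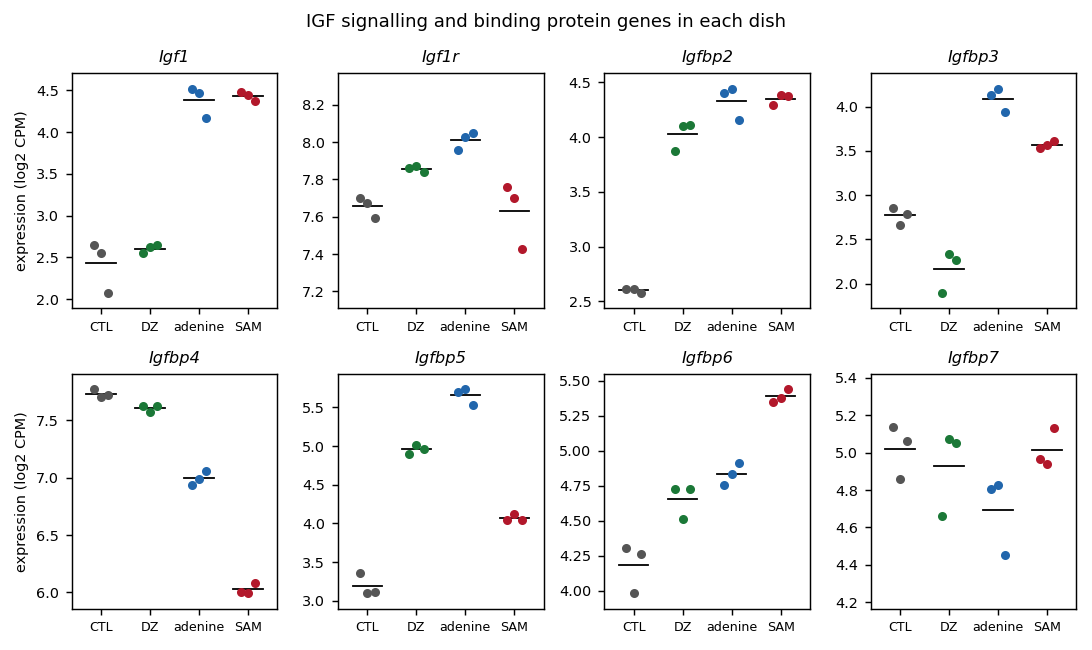
Log2 CPM (y axis, its range set for each gene) of the 8 genes in the 3 dishes of CTL, DZ, adenine and SAM (x axis). Points are dishes and lines are group means. Igf1 separates adenine and SAM from CTL and DZ, Igfbp4 steps down from a mean of 7.73 in CTL to 6.03 in SAM, and Igfbp3 is lowest in DZ.

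Counted over the 8 genes, 5 passed the FDR of 0.01 under DZ (45.9% of all 12591 genes did), 7 under adenine (61.6% of all genes) and 6 under SAM (69.3% of all genes), so that passing the threshold was common in these libraries. Higher than CTL were 3 under DZ (22.6% of all genes), 6 under adenine (30.6%) and 5 under SAM (33.7%), and lower were 2 under DZ (23.4%), 1 under adenine (31%) and 1 under SAM (35.7%). The background for a change of at least 1 log2 unit was smaller, 1.91% of all genes under DZ, 10.2% under adenine and 13.1% under SAM. Igfbp2 and Igfbp5 reached it under DZ. Igf1, Igfbp2, Igfbp3 and Igfbp5 did under adenine, and Igf1, Igfbp2, Igfbp4 and Igfbp6 under SAM. The median log2 fold change of the 8 genes was 0.19 under DZ, 0.99 under adenine and 0.83 under SAM, beside -0.0057, -0.0030 and -0.015 for all genes. Treated and CTL dishes did not overlap in 6 of the 8 genes under DZ (65.4% of all genes), 8 under adenine (74.7%) and 6 under SAM (77.6%). These 3 comparisons share the CTL dishes. Read gene by gene, Igf1 was changed under adenine and SAM but not called under DZ, Igfbp3 had opposite signs under DZ and under the other treatments, and Igfbp2, Igfbp5 and Igfbp6 were higher under each.

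**Figure D2:**
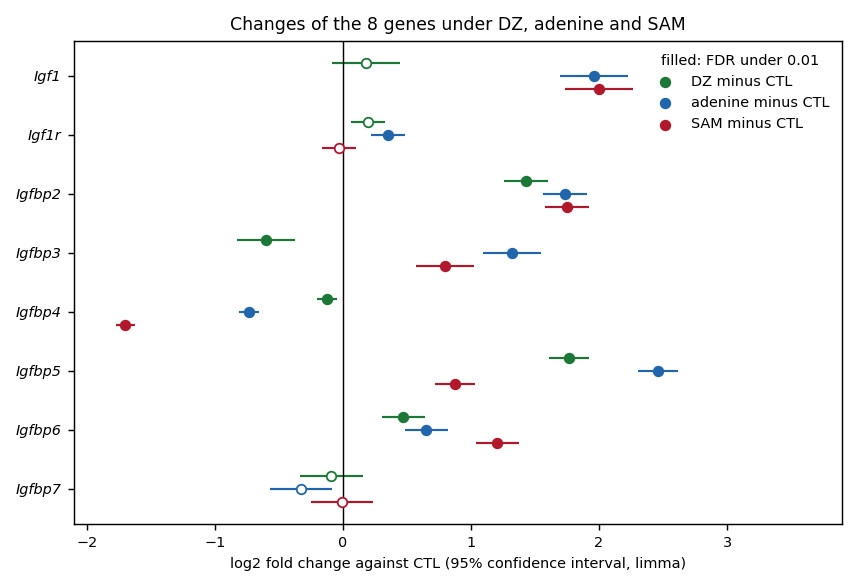
Log2 fold change against CTL (x axis) of the 8 genes (y axis) under DZ, adenine and SAM, each with its 95% confidence interval from limma. Filled points passed an FDR of 0.01. Igfbp5 under adenine, at 2.46, and Igfbp4 under SAM, at -1.70, are the outermost points.

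Adenine and SAM were given at the same concentration of 1 mM in the medium for the same 24 h, and their dishes were compared with each other directly. In the study's own measurements adenine also rose in cells given SAM, so equal concentrations in the medium are not equal exposures. Igf1 and Igfbp2 did not differ beyond the spread of the dishes, with SAM minus adenine at 0.04 (95% CI -0.22 to 0.31, adjusted p = 0.785) and 0.02 (95% CI -0.16 to 0.19, adjusted p = 0.866), intervals that leave room for a difference of up to about 0.3 and 0.2 log2 units. Igfbp3, Igfbp4, Igfbp5, Igfbp6 and Igf1r passed the test. Igfbp5 was 3.01-fold lower in SAM than in adenine (log2 fold change -1.59, SE 0.0724, adjusted p = 1.22e-10), a larger absolute change than that of 99.7% of all genes. Igfbp4 was 1.95-fold lower (-0.97, SE 0.0354, adjusted p = 8.44e-12), Igfbp3 1.44-fold lower (-0.52, SE 0.107, adjusted p = 0.000715), and Igf1r 1.30-fold lower (-0.38, SE 0.0623, adjusted p = 0.000108). Igfbp6 was the only member higher in SAM past the threshold, by 1.47-fold (0.55, SE 0.0796, adjusted p = 3.35e-05). Igfbp7 was higher in every SAM dish than in every adenine dish, by 0.32 (95% CI 0.07 to 0.56), but did not pass (adjusted p = 0.0279). In all, 5 of the 8 genes passed (42.7% of all genes), 1 higher (20.8%) and 4 lower (22%), and only Igfbp5 differed by at least 1 log2 unit (1.6% of all genes). The dishes of the 2 treatments did not overlap in 6 of the 8 (61.3% of all genes). Without SAM replicate 3, 5 of the 8 genes passed (4955 of all 12591 genes did), with Igf1r at -0.28 and Igfbp5 at -1.58.

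Levels of different genes were compared as CPM, without the prior count, per kilobase of merged exons, a scale per length. In CTL, Igfbp4 was the most abundant binding protein RNA at 47.9 ± 1.18 (SD, n = 3), followed by Igfbp6 at 13.2 ± 1.54, Igfbp7 at 5.97 ± 0.579, Igfbp2 at 2.90 ± 0.0399, Igfbp3 at 1.91 ± 0.127 and Igfbp5 at 1.52 ± 0.162. The receptor Igf1r stood at 10.2 ± 0.400 and the ligand Igf1 at 0.530 ± 0.107, the lowest of the 8. Igf1 remained the lowest in SAM at 2.10 ± 0.0810 and in adenine at 2.05 ± 0.257. The sum of the 6 binding protein levels was 73.4 ± 3.42 in CTL, 82.2 ± 2.06 in DZ, 77.2 ± 1.61 in adenine and 66.9 ± 2.14 in SAM. Igfbp4 made up 65.3% ± 1.67 of this sum in CTL, 53.5% ± 1.07 in DZ, 37.4% ± 1.68 in adenine and 22.1% ± 0.294 in SAM. Igfbp6 made up 17.9% ± 1.35 in CTL, 22.2% ± 1.62 in DZ, 26.8% ± 1.49 in adenine and 45.3% ± 0.0537 in SAM, where it replaced Igfbp4 as the most abundant. The shares of Igfbp2 went from 3.96% ± 0.193 in CTL to 9.57% ± 0.817 in DZ, 12.6% ± 1.19 in adenine and 14.7% ± 0.385 in SAM. Igfbp5 held 2.07% ± 0.145 in CTL, 6.31% ± 0.290 in DZ, 10.9% ± 0.694 in adenine and 4.17% ± 0.207 in SAM. Igfbp3 held at most 6.19% ± 0.478, in adenine.

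The level of Igfbp7 depends on the exon length given to it. Of its 5449 exon bases in the annotation used here, only 1232 lie outside the span of Polr2b. With this shorter length, chosen after seeing the data, Igfbp7 stood at 26.4 ± 2.56 in CTL and made up 28.1% of the sum there, 24.5% in DZ, 22.5% in adenine and 30.05% in SAM. The share of Igfbp4 was then 51.1% in CTL and 16.9% in SAM, and that of Igfbp6 14.0% and 34.8%, so that Igfbp4 remained first in CTL and Igfbp6 first in SAM. Every Igfbp7 read was kept for the shorter length, including any from exon bases inside the span of Polr2b. The Igfbp7 levels and shares under it are therefore upper limits.

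**Figure D3:**
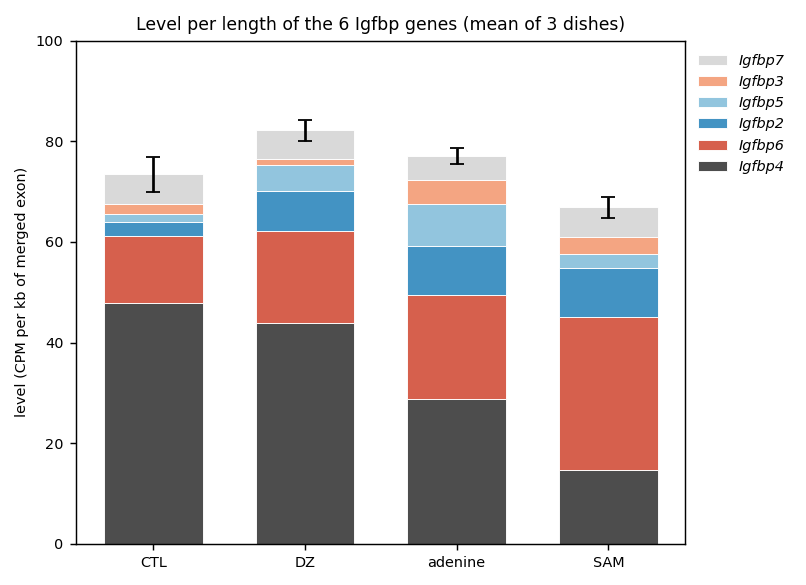
Mean level of the 6 binding protein genes (y axis, CPM per kb of merged exon) in CTL, DZ, adenine and SAM (x axis), stacked, with the SD of the sum over 3 dishes as error bars. The Igfbp4 part shrinks from 47.9 in CTL to 14.8 in SAM while the Igfbp6 part grows from 13.2 to 30.3.

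The genes whose 3 log2 fold changes against CTL were nearest to those of each of the 8 were found by the smallest of the largest differences over DZ, adenine and SAM, which share the CTL dishes. Nearest to Igf1 was Ncapg2, which differed by at most 0.107 log2 units, and nearest to Igf1r was Isy1, by at most 0.0326. Igfbp4 was nearest to Ghitm (0.118) and Vegfa (0.124). Igfbp6 was nearest to Plb1 (0.0907), Igfbp2 to Cxcl1 (0.181), Igfbp3 to Mmp15 (0.231) and Igfbp7 to Uhrf2 (0.0288). No gene came closer to Igfbp5 than 0.641 (Gm29609), the largest such distance of the 8.

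The other genes of the pathway were counted in lists written with earlier results of these data known. Higher and lower here mean past the FDR of 0.01, for which the shares of all genes were 22.6% higher and 23.4% lower under DZ, 30.6% and 31% under adenine, and 33.7% and 35.7% under SAM. Among other ligands and receptors, 3 of 11 names were listed, Igf2r, Insr and Lrp1, and Igf2, the insulin genes and Igfbp1 were not. Igf2r, the clearance receptor for IGF-2, fell by 0.32 under DZ, 0.27 under adenine and 0.67 under SAM (adjusted p = 0.000410, 0.00121 and 8.80e-08). The insulin receptor Insr fell by 0.32 under adenine and 0.57 under SAM (adjusted p = 1.57e-05 and 1.33e-08), and was at -0.13 under DZ (adjusted p = 0.0268). In this list, 1 of 3 genes was lower under DZ, 2 under adenine and 3 under SAM, and none was higher, with medians of -0.14, -0.27 and -0.67.

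The proteases that cut IGFBPs, with their inhibitors, had 15 of 17 names listed. Under DZ, 11 were higher (73.3%, against 22.6% of all genes) and 2 lower (13.3%, against 23.4%). Under adenine 7 were higher (46.7%, against 30.6%), and under SAM 8 were (53.3%, against 33.7%), while the 5 lower in each (33.3%) were close to the 31% and 35.7% of all genes. The lower count under adenine depended on the scaling, as Adam12, Mmp14 and Ctsd lost their lower calls with plain read totals. Adam12 and Mmp14 also lost them when some single dishes were left out. The median log2 fold changes were 0.27, 0.31 and 0.14. Pappa, which encodes the IGFBP4 protease PAPP-A, fell from 6.61 ± 0.0375 log2 CPM in CTL to 5.17 ± 0.0682 in adenine and 5.19 ± 0.133 in SAM (log2 fold changes -1.45 and -1.42, adjusted p = 5.13e-12 and 3.62e-12), and rose by 0.31 under DZ (adjusted p = 0.000297). Its relative Pappa2 rose by 2.07 under DZ from a low level of 0.76 ± 0.189 log2 CPM (adjusted p = 1.03e-08). Pappa2 also rose by 0.97 under SAM (adjusted p = 1.23e-05), and was at 0.34 under adenine, not called (adjusted p = 0.0427). Mmp3, stromelysin-1, which can cut IGFBP3, rose by 1.54 under DZ, 2.48 under adenine and 2.99 under SAM (adjusted p = 7.99e-09, 6.35e-12 and 4.52e-13). Among proteins with an IGFBP-type domain, 8 of 12 were listed. Under DZ, 5 were higher (62.5%, against 22.6% of all genes) and 1 lower (12.5%, against 23.4%), and under adenine 3 were higher (37.5%, against 30.6%) and 1 lower (12.5%, against 31%). Under SAM, 3 were higher and 3 lower (37.5% each), near the 33.7% and 35.7% of all genes.

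Downstream of the receptor, 15 of 16 adaptor genes were listed. Under DZ, 1 was higher (6.67%, against 22.6% of all genes) and 3 lower (20%, against 23.4%). Under adenine 5 were higher (33.3%, against 30.6%) and 3 lower (20%, against 31%), and under SAM 6 were higher (40%, against 33.7%) and 4 lower (26.7%, against 35.7%), so that the list was near or below the shares of all genes in most of these counts. Irs1, which links the receptor to PI3K, rose by 1.35 under adenine (SE 0.0571, adjusted p = 9.41e-12) and 1.33 under SAM (adjusted p = 7.24e-12), and stood at 0.11 under DZ (adjusted p = 0.114). Grb10, an adaptor that inhibits the receptor, fell by 0.37 under adenine and 0.89 under SAM (adjusted p = 1.34e-07 and 2.57e-12). Other inhibitors in the list went either way under SAM. Its relative Grb14 rose by 1.55 (adjusted p = 1.26e-09), the largest rise of the list, and Socs2 fell by 1.33 (adjusted p = 2.27e-09), the largest fall. Socs3 and Ptpn1 rose by 0.52 and 0.38 (adjusted p = 1.73e-06 and 7.25e-08). Grb14 and Socs2 were among the 3 called genes of smallest adjusted p only for SAM minus adenine, and Socs3 and Ptpn1 in no comparison. All of these inhibitors other than Grb10 were named here after their values under SAM were seen. Of 26 listed PI3K-AKT-mTOR genes, 5 were higher (19.2%, against 22.6% of all genes) and 3 lower (11.5%, against 23.4%) under DZ, and 7 were higher and 7 lower under adenine (26.9% each, against 30.6% and 31%). Under SAM, 12 were higher (46.2%, against 33.7%) and 9 lower (34.6%, against 35.7%). With plain read totals, Pik3ca, Pik3cb, Pdpk1 and Rptor lost their lower calls under SAM, and Rps6kb1 was called higher. The medians of the list under DZ, adenine and SAM were 0.050, -0.022 and -0.033. The mTOR substrate gene Eif4ebp1 was the one of these changed by at least 1 log2 unit, falling by 1.21 under SAM (SE 0.0397, adjusted p = 3.21e-13). Of 14 listed FOXO factors and targets, 2 were higher (14.3%, against 22.6% of all genes) and 7 lower (50%, against 23.4%) under DZ. Under adenine 7 were higher (50%, against 30.6%) and 3 lower (21.4%, against 31%), and under SAM 6 were higher (42.9%, against 33.7%) and 4 lower (28.6%, against 35.7%), with medians of -0.17, 0.17 and 0.11. AKT signalling restrains FOXO proteins, while these counts pool the RNA of the factor genes with that of targets. The higher genes under DZ were the factors Foxo1 and Foxo3, and the lower ones were Foxo4, Foxo6, Sesn3, Ccng2, Txnip, Fbxo32 and Pik3ip1. Under adenine, Foxo1, Foxo3, Foxo4, Foxo6, Sesn1, Sesn3 and Ccng2 were higher, and Fbxo32, Pik3ip1 and Insr lower. Under SAM, Foxo1, Foxo3, Foxo4, Sesn1, Sesn3 and Ccng2 were higher, and Trib1, Bcl6, Fbxo32 and Insr lower. The SAM counts depended on the scaling. With plain read totals, Trib1, Bcl6 and Fbxo32 lost their lower calls (-0.053, -0.067 and -0.14 log2 units). Foxo6, Pik3ip1 and Irs2 were then called higher (0.29, 0.17 and 0.15). The higher share of called genes, over all genes, also rose from 48.5% to 61.2%. Sesn1, a stress-induced inhibitor of mTOR signalling, rose by 1.25 under adenine and 1.28 under SAM (adjusted p = 2.20e-12 and 9.46e-13). Htra1 stands in both the protease and the domain list, and Insr and Irs2 in the FOXO list and another.

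**Figure D4:**
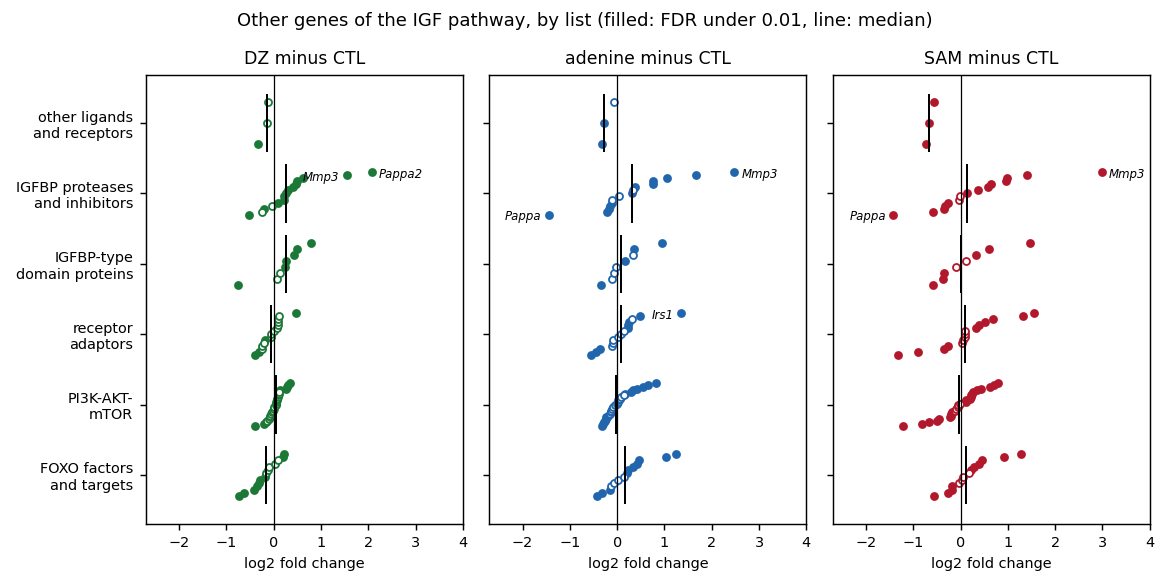
Log2 fold change against CTL (x axis) of the other pathway genes, by list (y axis), under DZ, adenine and SAM. Each point is a gene, filled where it passed an FDR of 0.01, and vertical lines are the medians of the lists. Most genes lie within 1 log2 unit of 0, while Mmp3 reaches 2.99 under SAM and Pappa lies at -1.45 under adenine and -1.42 under SAM.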

How the data were processed

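RNA of 12 dishes, 3 in each of 4 groups given by the labels, was sequenced as stranded polyadenylated libraries. According to the study's methods, the authors trimmed reads with Trimmomatic, mapped them to GRCm39 with HISAT2 and the GENCODE vM27 annotation, quantified transcripts with StringTie, and ran edgeR on those genes that had a CPM of 1 or more in every library. The values in the deposited table are log2 CPM made by the authors on normalized library sizes, to which edgeR adds a prior count (2 here) before the logarithm. Reads were recovered by solving for each library size, and 100% of values fell within 0.05 of a whole read (largest distance 0.0020), but these reads are StringTie estimates made from coverage.

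The log2 values were tested as deposited with limma 3.58.1 in R 4.3.3 (lmFit, contrasts, eBayes with a variance trend, 1 model of 12 libraries), with Benjamini-Hochberg adjustment over 12591 genes and an FDR of 0.01. The fit was also run on simulated reads, with the same dispersion for every gene and no outlying library. That run does not measure the error rate in these dishes. The fold changes of the deposited values are on the scale with the prior count. An exact permutation test of 3 dishes against 3 cannot go below 0.1, so groups of single genes were described by overlap. Symbols, positions, exon lengths and promoters came from GENCODE vM39 and the GRCm39 sequence, in which 12575 of 12591 identifiers were found. Levels per length used merged exons. Reads, tables and plots were made in Python 3.11.15 (pandas 2.3.3, numpy 2.4.6, matplotlib 3.10.9).

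All 8 genes were named in every comparison, up to 3 called genes with the smallest adjusted p could be named in each pathway list, and up to 2 nearest genes for each of the 8. As an exception made after the values were seen, all genes of the FOXO list called against CTL were named. The genes and lists were chosen with earlier results of these data known. Same-numbered dishes were not paired, as the r of their deviations from group means lay between -0.142 and 0.181 and exceeded 0.1 in 1 of 18 pairs. Alternatives covered the variance model, normalization, pseudocount, filters, threshold, voom on recovered reads, the groups in the fit, a replicate block, exon length, and leaving out each library in turn.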

Additional observations from a re-analysis of the deposited data

How the results depend on the processing

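Over all settings, the number of the 8 genes called was 4 to 6 under DZ, 7 to 8 under adenine, 6 under SAM and 5 to 6 for SAM minus adenine, while the number of all genes called ranged from 4953 to 7343, 6702 to 8852, 7477 to 9697 and 4490 to 6991, and the number of the 8 changed by at least 1 log2 unit did not move from 2, 4, 4 and 1. The replicate numbers do not pair the dishes, and with the replicate block the counts were 6, 7, 6 and 5, Igf1r passing under DZ (adjusted p = 0.00867), a call also made with plain read totals (0.00550), quantile normalization (0.00831) and only both groups in the fit (0.00013). Of 384 values of 32 gene and comparison pairs under other settings, 368 kept their direction and side of the threshold. The values that changed sign belonged to differences not called. Igf1r under SAM was 0.094 with plain read totals, 0.089 with quantile normalization and 0.073 without SAM replicate 3. Igfbp7 under SAM was 0.11 with plain read totals, 0.049 without CTL replicate 1, 0.013 without CTL replicate 3, 0.015 without SAM replicate 1 and 0.028 without SAM replicate 2, and under DZ it was 0.042 without DZ replicate 1. For SAM minus adenine, without adenine replicate 3, Igf1 was -0.064 and Igfbp2 -0.070. Leaving out single dishes, these differences ranged from -0.093 to 0.073 for Igf1r and -0.089 to 0.049 for Igfbp7 under SAM, from -0.17 to 0.042 for Igfbp7 under DZ, and, for SAM minus adenine, from -0.064 to 0.11 for Igf1 and -0.070 to 0.072 for Igfbp2. The cause was not tested. The share of Igfbp4 in CTL moved from 65.3% to 51.1% with the Igfbp7 exons outside Polr2b, because the shorter length, with all reads kept, raises the level of Igfbp7. With the longest transcript as length that share was 66.0%, but 14 of 24 shares moved by at least their SD. Igfbp2 then held 15.3% in adenine and 17.6% in SAM. Igf1r, at 16.1 in CTL, then stood above Igfbp6 at 14.9. A mean log2 value of at least 3, which tests fewer genes, lowered the number of all genes changed by at least 1 log2 unit from 240 to 125 under DZ and from 202 to 128 for SAM minus adenine. Calls in the pathway lists under SAM also moved with plain read totals. Among the adaptors, Grb2, Irs2, Gab1 and Ptpn11 were then called higher. Among the proteases and inhibitors, Adam12 lost its lower call, and Ctsd and Timp2 were called higher. Igf1, Igfbp2 and Igfbp3 rest on the fewest reads, down to 191, 269 and 182 in a library.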
